A study of Mus musculus with 6 samples.

Results

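Microexons are internal exons of 3 to 27 bases, and the tables of these dorsal root ganglion libraries listed 1793 of them among 180313 unique internal exons of protein-coding genes. A member was an exon with a length in that range that was neither the first nor the last exon of its transcript, counted once per position. The 1793 microexons lay in 1279 genes: 1003 genes held 1, 184 held 2, and 1 gene held 20. The readout was the number of sequencing tags that the authors assigned to the exon, set against the tags of both flanking exons of the same transcript. Where several transcripts held a microexon, the transcript with the most tags was used. No measured value entered the choice of members.

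The RNA was 1 pool from the dorsal root ganglia of 18 embryos of the C57BL/6J strain, wild type and at embryonic day 14.5. Portions of that RNA of 3, 10 and 30 ng were turned into cDNA with SMARTer kits, which prime at the poly(A) tail. In the high-volume group the RNA was in 9 µl (SMARTer Ultra Low Input, HV kit), whereas low-volume libraries started from 1 µl (SMARTer Ultra Low RNA kit), so volume and kit cannot be told apart. There was 1 library for each volume and input, 6 in all, and every SD, SE and p-value below measures technical spread within 1 RNA pool, not spread between animals.

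Microexons are recognised by the spliceosome in spite of having little room for the usual exonic signals, and many are included only in neurons. They often keep the reading frame and add a few residues to proteins of adhesion, membrane traffic and the cytoskeleton. The splicing factor Srrm4 is known to promote the neuronal ones, while Ptbp1 represses many of them in other cells. Sensory ganglia hold neurons, satellite glia, Schwann cell precursors, vessels and blood, and in such bulk RNA fewer cells of a type and less RNA per cell cannot be told apart.

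The sequences of the microexons that the results turn on follow, 5′ to 3′ on the strand of the gene, from GENCODE M21 transcripts on the GRCm38 build. Capitals mark the microexon and lower case the last 20 bases of the exon before it and the first 20 of the exon after it. The first set holds microexons of receptors, adhesion molecules, traffic and membrane skeleton proteins whose tags, once adjusted for exon length, stood at 0.73 or more of the level of their flanks, and Ergic3 at 0.56. Their positions were chrX:73855652-73855663 and chrX:73867022-73867036 for L1cam (minus strand), chrX:163931363-163931371 for Ap1s2 (plus), chr17:56421833-56421844 for Ptprs (minus), chr2:30014158-30014172 for Sptan1 (plus) and chr2:156015377-156015391 for Ergic3 (plus).
L1cam, 12 bases: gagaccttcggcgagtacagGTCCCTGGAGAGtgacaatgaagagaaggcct
L1cam, 15 bases: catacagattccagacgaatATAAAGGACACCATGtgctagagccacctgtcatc
Ap1s2, 9 bases: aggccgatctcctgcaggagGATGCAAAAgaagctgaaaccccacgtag
Ptprs, 12 bases: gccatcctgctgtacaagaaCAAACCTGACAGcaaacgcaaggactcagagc
Sptan1, 15 bases: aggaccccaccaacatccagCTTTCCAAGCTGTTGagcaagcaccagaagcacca
Ergic3, 15 bases: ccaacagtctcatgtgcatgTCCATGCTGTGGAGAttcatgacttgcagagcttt
All 6 lengths are multiples of 3, so each microexon adds whole codons.

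The second set holds pairs of microexons listed as alternatives between the same flanking exons. In each pair the member named as higher carried most or all of the tags, and the lower case letters of both are the same.
Abi1, higher: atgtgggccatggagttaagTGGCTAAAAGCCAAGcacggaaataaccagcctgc
Abi1, lower: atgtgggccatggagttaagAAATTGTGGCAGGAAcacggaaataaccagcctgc
Kif21a, higher: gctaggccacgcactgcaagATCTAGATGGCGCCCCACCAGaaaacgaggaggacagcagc
Kif21a, lower: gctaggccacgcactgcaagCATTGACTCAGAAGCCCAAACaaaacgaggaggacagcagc
Sept7, higher: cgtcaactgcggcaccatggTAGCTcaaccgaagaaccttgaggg
Sept7, lower: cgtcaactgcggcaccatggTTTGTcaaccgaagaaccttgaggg
Atp6v0a1, higher: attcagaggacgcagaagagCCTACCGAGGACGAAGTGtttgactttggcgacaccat
Atp6v0a1, lower: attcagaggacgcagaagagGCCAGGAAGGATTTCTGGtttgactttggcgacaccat
Kif1a, higher: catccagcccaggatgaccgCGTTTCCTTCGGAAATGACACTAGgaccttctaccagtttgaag
Kif1a, lower: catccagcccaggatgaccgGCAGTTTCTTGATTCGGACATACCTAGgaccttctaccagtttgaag
Pitpna, higher: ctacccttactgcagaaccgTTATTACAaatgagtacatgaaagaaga
Pitpna, lower: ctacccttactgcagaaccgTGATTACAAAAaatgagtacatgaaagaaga
The positions of the higher and the lower member were chr2:22963214-22963228 and chr2:22971027-22971041 in Abi1 (minus strand), and chr15:90964975-90964995 and chr15:90959852-90959872 in Kif21a (minus). They were chr9:25264203-25264207 and chr9:25265302-25265306 in Sept7 (plus), and chr11:101049459-101049476 and chr11:101054831-101054848 in Atp6v0a1 (plus). They were chr1:93026832-93026855 and chr1:93034546-93034572 in Kif1a (minus), and chr11:75608107-75608114 and chr11:75603725-75603735 in Pitpna (plus).

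The flanks limited how many microexons could be described. The chosen flanks averaged under 1 tag per library for 621 microexons, 1 to under 20 tags for 734, and at least 20 tags for 438. All ratios below come from those 438, of which 29 had 0 tags in all 6 libraries. Over all members, 676 (37.7%) had 0 tags in every library. Another listed exon overlapped 487 microexons (27.2%), and 49 had a neighbouring intron shorter than 30 bases, which is too short for ordinary splicing. With both kinds set aside, 243 of the 438 remained and are called unambiguous, because their tags have no second listed exon to come from. That class was defined after values had been seen, as was the division by listed skipping used below.

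Detection was lowest in the 3 ng libraries, which were also the shallowest. With at least 5 tags as the limit, 361 of the 1793 microexons were detected in the high-volume 3 ng library, 440 at 10 ng and 461 at 30 ng. In low volume the counts were 383, 468 and 502. The libraries held 14160397 to 31524210 exon tags over 1 transcript per gene, fewest in high volume at 3 ng and most in low volume at 30 ng. After thinning every library to the lowest depth, 333 to 361 microexons still reached 5 tags, so the libraries then lay close together. Microexons with at least 1 tag after thinning numbered 435 and 516 in the 3 ng libraries, but 742 to 766 in the other 4. Of the microexons with a tag, only 17.0% and 26.3% had 1 to 4 tags in the 3 ng libraries of high and low volume, against 44.5% to 47.6% in the others. A low 3 ng value below is therefore often an exact 0.

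By length, 865 microexons had 22 to 27 bases, 437 had 16 to 21, 338 had 9 to 15, and 153 had 3 to 8. In all, 1126 (62.8%) had a length that is a multiple of 3, and 1590 (88.7%) lay inside the coding sequence of a GENCODE M21 transcript. Skipping was listed for 739 (41.2%), meaning that an intron of another transcript of the gene spans the whole exon.

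A short exon catches few reads even when every transcript holds it, and the raw ratio showed this. Among unambiguous exons without listed skipping, the median ratio of exon tags to the mean of both flanks was 0.449 for the 130 microexons, 0.580 for 1129 exons of 28 to 50 bases, and 0.779 for 5960 exons of 76 to 100 bases. A read overlaps an exon over the length of the exon plus a fixed read span. The span was estimated as 52 bases from 20658 internal exons of 28 to 300 bases, and as 45 to 55 bases in the separate libraries. In the length-adjusted ratio, tags per base of length plus span are divided by the same quantity averaged over both flanks, so that 1 stands for an exon present as often as its flanks. No microexon took part in the estimate.

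With that adjustment, microexons without listed skipping stood at the level of their flanks. Their median was 0.989 (quartiles 0.844 and 1.13), and the medians in the separate libraries ran from 0.890 to 1.03. By length it was 1.09 for 4 microexons of 3 to 8 bases, 1.01 for 16 of 9 to 15, 0.991 for 31 of 16 to 21, and 0.979 for 79 of 22 to 27. Exons of 28 to 50 bases had a median of 1.02. Just inside the length limit, 19 such microexons of 27 bases had a median of 0.993, and just outside it 14 exons of 28 bases had 0.901 and 17 of 29 bases had 0.973. The medians of the short classes rest on few exons.

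**Figure D1:**
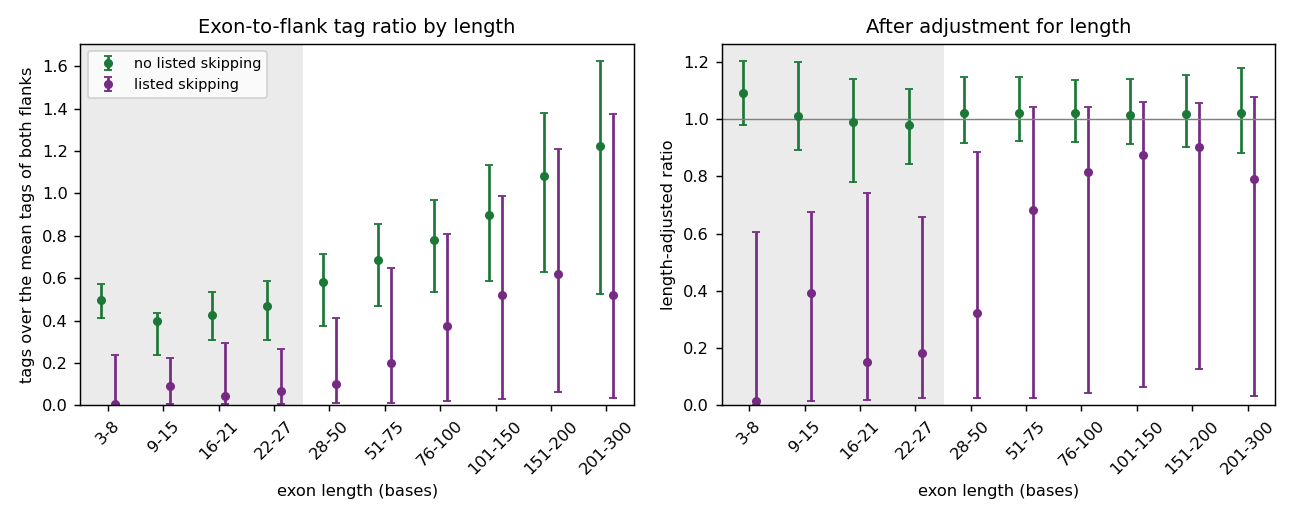
Ratio of exon tags to the mean of both flanks (left) and its length-adjusted form (right), by exon length in bases on the horizontal axis, for unambiguous internal exons whose flanks averaged at least 20 tags. Points are medians over exons and bars quartiles, green without and purple with listed skipping, and microexon classes are shaded. After adjustment the green medians lie between 0.979 and 1.09 at every length, while the purple ones are at most 0.392 in the shaded classes, 0.321 at 28 to 50 bases and 0.683 or more at greater lengths. Outside the shaded classes the read span was chosen to bring medians near 1.

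Microexons with listed skipping stood much lower. The 113 of them had a median length-adjusted ratio of 0.205 (quartiles 0.013 and 0.684), and 22 had 0 tags in all 6 libraries. The library medians were 0 in both 3 ng libraries and 0.159 to 0.283 in the others. The same class had a median of 0.321 among 251 exons of 28 to 50 bases, 0.683 among 495 of 51 to 75 bases, and 0.816 among 611 of 76 to 100 bases. Below 0.2 lay 56 of the 113 skipped microexons (49.6%), between 0.2 and 0.8 lay 36 (31.9%), and at 0.8 or more lay 21 (18.6%). Without listed skipping the counts were 7, 18 and 105 of 130. The limits 0.2 and 0.8 were set after the values had been seen.

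Lengths that keep the reading frame were more common with listed skipping. Of the skipped microexons 74.3% had a length that is a multiple of 3, against 49.2% of those without listed skipping. The shares were 55.8% and 37.7% for exons of 28 to 50 bases, and 43.4% and 38.0% for those of 76 to 100 bases. These are descriptions of the annotation together with the flank filter, and no test was made of them.

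**Figure D2:**
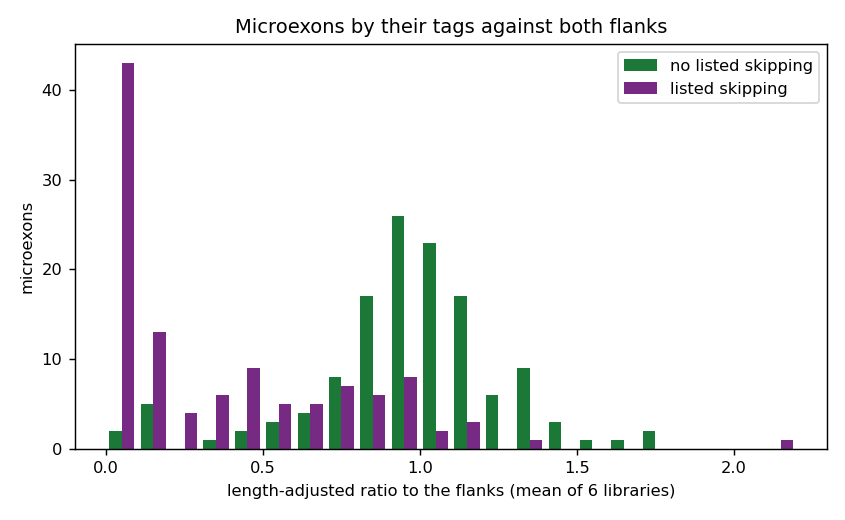
Number of unambiguous microexons (vertical axis) by length-adjusted ratio, mean of 6 libraries, in steps of 0.1 with both bars of a step side by side. Green bars show the 130 microexons without listed skipping, most of them close to 1, and purple bars the 113 with listed skipping, of which 56 lie below 0.2.

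The label of the tissue was checked on marker genes before the neuronal hosts were read. The neuronal tubulin Tubb3 had 2264 to 3608 RPKM (the authors' tag count scaled to transcript length and library total) and the sensory transcription factor Isl1 had 111 to 156 RPKM. Fabp7 of glia had 800.5 to 927 RPKM, and Hbb-y of erythroid cells 2668 to 3310. Muscle Mylpf had 17.5 to 27.2 RPKM, whereas Olig2 and Mnx1 of the spinal cord list were at most 0.018. The third gene of that list, the Notch target Hes5, had 11.7, 7.20 and 7.83 RPKM in high volume and 3.85, 2.70 and 1.85 in low volume at 3, 10 and 30 ng. Its log2 difference was 1.85 (SE 0.33, edgeR adjusted p 0.547), and its part in the microexon ratios was not tested.

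Lists of genes known to carry neuronal or muscle microexons held 180 microexons in 81 of 128 genes, and 39 of these, in 21 genes, had flanks of at least 20 tags. Among the 39, 32 were unambiguous, and all 32 had a length that is a multiple of 3. Their length-adjusted ratio had a median of 0.54. It was 0.8 or more in 10, between 0.2 and 0.8 in 12, and below 0.2 in 10. Of these 32, 28 had listed skipping, with a median of 0.42, beside 0.17 for the other 85 microexons with listed skipping. None of the 18 microexons in channel and synaptic genes, and none of the 25 in muscle genes, had flanks of 20 tags. Values below are length-adjusted ratios, mean ± SD over the 6 libraries, unless stated.

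L1cam, a cell adhesion molecule of growing axons, carried a pair of microexons. The 12-base exon 28 of 29 lies in the part for the cytoplasmic tail, where it is known to be added in neurons. It had 17, 22 and 35 tags in high volume and 15, 32 and 46 in low volume at 3, 10 and 30 ng, with a ratio of 0.73 ± 0.17. The 15-base exon 2 of 27 had 0, 10 and 11 tags in high volume and 11 in each low-volume library, with a ratio of 0.99 ± 0.57. The wide SD of the 15-base exon came with the 0 of the high-volume 3 ng library and a value of 1.78 at 10 ng. For the 12-base exon, 1 flank is the last exon, of 1312 bases, which makes its adjusted value depend on the assumption of even coverage along that flank.

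Other adhesion and matrix genes ranged from near 1 to near 0. Ptprs, a receptor phosphatase for proteoglycans, had a ratio of 0.90 ± 0.18 for its 12-base exon 20 of 33, with 8 to 29 tags per library. Agrn encodes agrin, the proteoglycan that clusters acetylcholine receptors. Its 12-base exon had 0 tags in 1 library and 4 to 11 in the others, with a ratio of 0.37 ± 0.20. Its 24-base exon, which another exon overlaps, had 0 tags in 3 of 6 libraries and a ratio of 0.13 ± 0.17. In Reln, the secreted guidance protein reelin, the 6-base exon 64 of 65 had 0 to 8 tags and a ratio of 0.39 ± 0.42. The SD exceeds the mean, so these few tags fix the level in Reln poorly.

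Among genes of membrane traffic, Ap1s2, a small subunit of the AP-1 clathrin adaptor, had a 9-base microexon with a ratio of 0.90 ± 0.37. It had 17, 22 and 23 tags in high volume and 5, 25 and 12 in low volume at 3, 10 and 30 ng. The raw ratio was 0.071 ± 0.029, since 1 of its flanks is 1534 bases long. As for the 12-base exon of L1cam, the adjusted value depends on the assumption of even coverage along that flank. Ergic3, a cargo receptor between the endoplasmic reticulum and the Golgi, had a 15-base exon with 156, 181 and 217 tags in high volume and 88, 249 and 291 in low volume. Its ratio was 0.56 ± 0.08, and all 6 libraries lay between 0.42 and 0.68, clear of both 0 and 1. Snap91, a clathrin assembly protein of synapses, had 0.87 ± 0.34 for 15 bases.

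Motor genes held several microexons each with different values. Kif1a, the kinesin that carries synaptic vesicle precursors along axons, had 0.75 ± 0.14 for its 18-base exon 10, with 13 to 37 tags per library. Its 27-base exon 13 had 0.10 ± 0.12 and 0 tags in 3 of 6 libraries. Kif21a, a kinesin that restrains microtubule growth, had 0.92 ± 0.19 for a 21-base exon and 0.20 ± 0.18 for a 15-base exon. Dctn1, the largest subunit of dynactin, had 0.96 ± 0.14 for its 21-base exon 7, which codes for the basic stretch near the microtubule-binding domain, with 7 to 21 tags. Its 15-base exon 27, overlapped by another exon, had 0.77 ± 0.33.

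Of 9 unambiguous cytoskeletal members, 3 were at 0.8 or more, 3 between 0.2 and 0.8, and 3 below 0.2. Sptan1, the alpha spectrin of non-erythroid cells, had 0.93 ± 0.25 for its 24-base exon 25 and 1.03 ± 0.29 for its 15-base exon 36. Its 18-base exon 50 had 1.85 ± 0.22, but 2 other listed exons overlap it. Ank2, an ankyrin that ties membrane proteins to spectrin, had 0.94 ± 0.51 for 24 bases. Clasp2, a microtubule plus-end protein, had 0.77 ± 0.46 for 24 bases, with 0 tags in the high-volume 3 ng library in both Ank2 and Clasp2. Cask, a membrane scaffold, was the opposite case: its 27-base exon 4 had 1 tag in 1 library and 0 in the other 5, against flanks of 18.5 to 64.0 tags.

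In signalling and nuclear genes, Apbb2, an adaptor that binds the amyloid precursor protein, had 1.00 ± 0.48 for its 6-base exon, with 5 to 12 tags per library. The chromatin reader Zmynd8 had 0.44 ± 0.23 for 12 bases. Kdm1a, the histone demethylase LSD1, has a 12-base exon known from neurons, and it had 0.20 ± 0.17 with 0 to 5 tags. Zmynd8 had 0 tags in the low-volume 3 ng library and tags in the other 5, so its SD is set in part by that library.

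**Figure D3:**
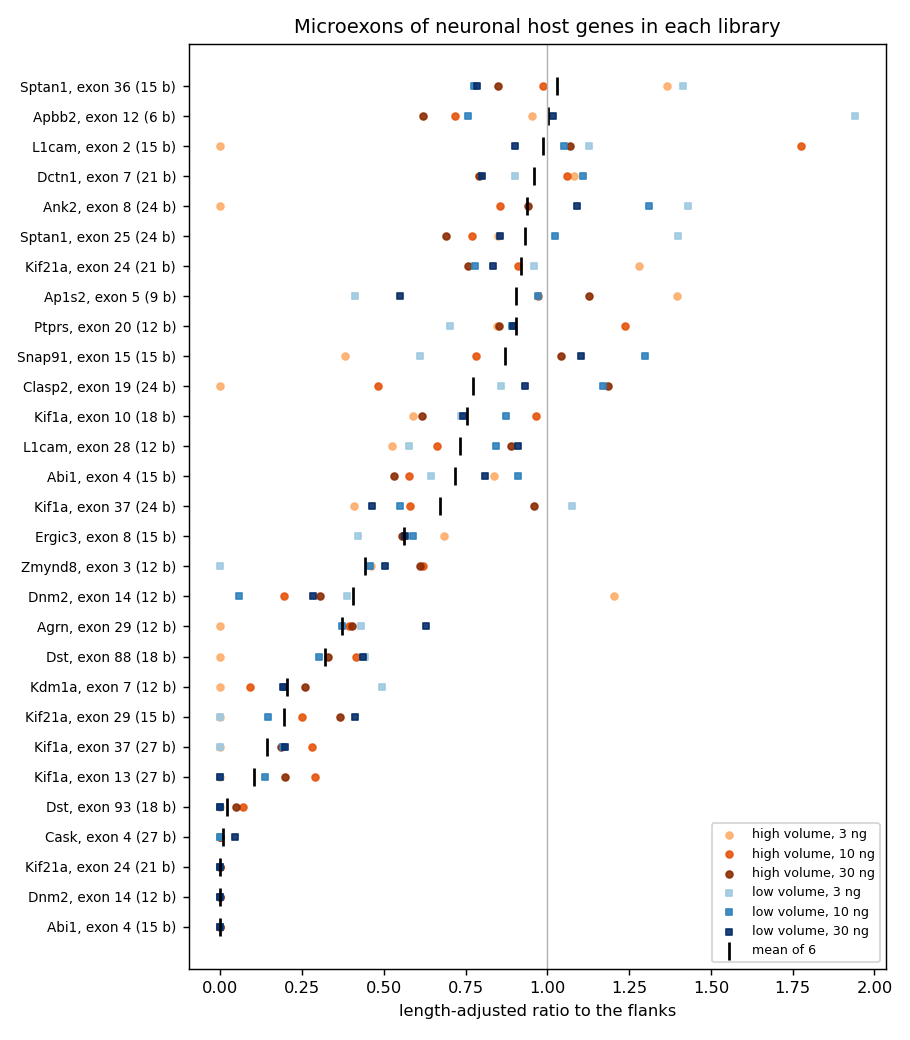
Length-adjusted ratio (horizontal axis) of 29 unambiguous microexons of the host lists, ordered by their mean (black bar). Circles are high-volume and squares low-volume libraries, darker with more input. The order runs from the 15-base exon of Sptan1 at 1.03 to 3 microexons with 0 tags in every library, and neighbours overlap in their spread.

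Many hosts with well-known microexons fell below the flank limit and are named here for their depth only, after their values had been seen. The flanks of the 18-base exon of the kinase Src averaged 0.75 tags, those of the 21-base exon of Mef2d 7.17, and those of the 24-base exon of Cpeb4 2.58. At these depths neither inclusion nor skipping was measurable.

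In 14 genes the files listed microexons as alternatives between the same flanks, and in 13 of them these did not overlap. In all 13 the lower member had a ratio under 0.2, and in 7 it had 0 tags in every library. The higher member exceeded the lower in 6 libraries for 10 genes and in 5 for the other 3. Since the order was set by the means, its direction is a description. In 9 of the 13 both members were unambiguous, and in 11 both had the same length.

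Abi1, a subunit of the complex that starts actin branching, had 9, 10 and 15 tags in high volume and 17, 34 and 30 in low volume for 1 member, with a ratio of 0.72 ± 0.15. The alternative of the same length, printed above, had 0 tags in all 6 libraries, which allows a ratio of up to 0.019 (3 tags over the group, counting error only). Neither this limit nor those below cover reads lost in alignment to so short an exon, and such loss was not measured. The sequences of both hold the same base at 2 of their 15 positions.

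Kif21a showed the same form, with 5 to 21 tags for the 21-base exon at 0.92 ± 0.19 and 0 tags in every library for its alternative of 21 bases, an upper limit of 0.045. Sept7, a septin of the cytoskeleton, had 34 to 67 tags for the higher 5-base exon, with 0.84 ± 0.17, and 0 for the lower, a limit of 0.0083. Atp6v0a1, a subunit of the vesicular proton pump, had 18 to 64 tags for the higher 18-base exon, with 0.79 ± 0.17, and 0 to 3 for the lower. Pitpna, a phosphatidylinositol transfer protein, had 9 to 22 tags for 8 bases, with 1.18 ± 0.20, and 1 tag in 1 library for the 11-base alternative. In these genes the higher members of all 6 libraries lay above the lower members of all 6.

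In Kif1a, Dst and Dnm2 the higher member had a lower mean ratio than in those 5 genes, for Kif1a by less than its SD from Abi1. In Kif1a the 24-base member had 0.67 ± 0.28 and the 27-base member 0.14 ± 0.12, with 5 to 15 and 0 to 4 tags. Dst, the cytoskeletal linker dystonin, had 0.32 ± 0.17 and 0.02 ± 0.03 for its 18-base members, and in the high-volume 3 ng library both had 0 tags. Dnm2, a dynamin of endocytosis, had 0.41 ± 0.41 for the higher 12-base member, of which 9 of 25 tags came from the high-volume 3 ng library, and 0 tags in all 6 libraries for the lower, a limit of 0.039.

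The other pairs lie outside the neuronal lists. Fam92a, a protein of the ciliary base, had 0.90 ± 0.20 for a 6-base exon with 22 to 56 tags, and 1 tag in 1 library for its alternative of 6 bases. Trim26, a ubiquitin ligase, had 0.79 ± 0.40 for 18 bases, with 0 tags in the high-volume 3 ng library, where its flanks averaged 3 tags. Slc38a10, an amino acid transporter, had 0.51 ± 0.18 for 24 bases and a limit of 0.029 for the alternative at 0 tags. Tle1, a transcriptional corepressor, had 0.46 ± 0.30 for 17 bases and a limit of 0.074 for the other. Lmf1, which matures lipases, had 1.21 ± 0.78 for 11 bases, a mean raised by a value of 2.79 in the high-volume 3 ng library, while the other 5 libraries lay between 0.83 and 1.00. In Fam92a, Trim26, Slc38a10 and Lmf1 another listed exon overlaps the higher member, so their values may include its tags.

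**Figure D4:**
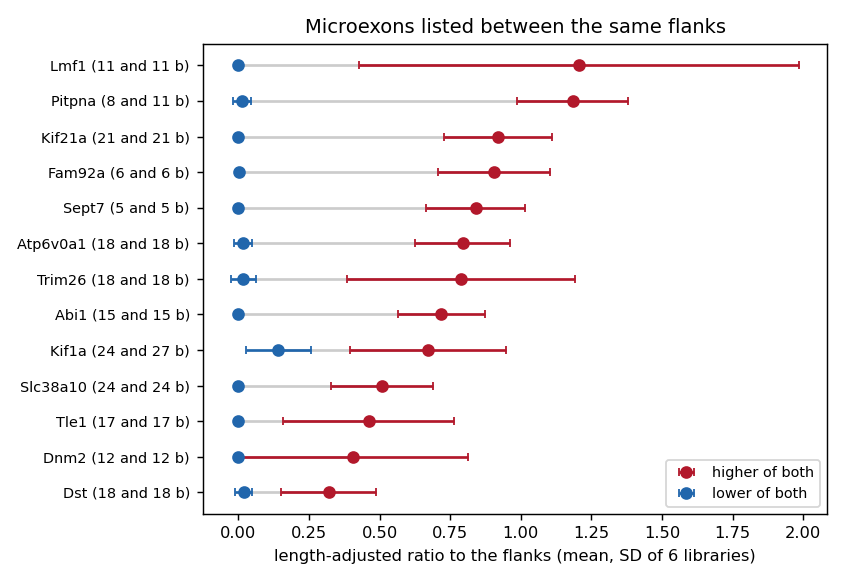
Length-adjusted ratio, mean and SD of 6 libraries (horizontal axis), of the higher (red) and the lower (blue) microexon between the same flanks in 13 genes, with both lengths in bases beside the gene. All blue points lie below 0.2, and the red points run from 0.32 in Dst to 1.21 in Lmf1.

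The shortest members were measured too. With 3 to 8 bases, 32 microexons had flanks of 20 tags, and their median ratio was 0.413. Ap2m1, the medium subunit of the endocytic adaptor AP-2, had 507 to 1278 tags for 6 bases, the most of the shortest group, and a ratio of 0.98 ± 0.06, but 2 other exons overlap it. Without such overlap, the 8-base exon of the splicing protein Hnrnpm had 1.15 ± 0.56, with 11 to 37 tags, and that of Pitpnb, a paralog of Pitpna, had 1.03 ± 0.34, with 8 to 43. The 8-base exon of Ablim3, an actin-binding protein, had 1.36 ± 0.39, with 7 to 24 tags and no overlapping exon. The 8-base exons of Pitpna and Pitpnb fall in the same place of their transcripts, exon 5 of 12, and both have flanks of 92 and 75 bases. The 4-base exon of Mpc1, a carrier of pyruvate into mitochondria, had 192 to 621 tags and 1.47 ± 0.19, with 3 overlapping exons. Ratios of overlapped exons include tags that may belong to the other exon.

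Another exon overlaps each of the next members of this length with 5 tags in every library. Nsfl1c, a cofactor of the p97 ATPase, had 65 to 194 tags and 1.24 ± 0.14 for 6 bases, and Phb2, a prohibitin of mitochondria, 42 to 114 tags and 1.18 ± 0.21 for 6 bases. Ppp2r1a, the scaffold subunit of a phosphatase, had 0.29 ± 0.05 for 7 bases, Ehmt2, a histone methyltransferase, 0.43 ± 0.18 for 8 bases, and U2af1l4, a relative of a splice site factor, 0.25 ± 0.09 for 6 bases. The 3-base exon of Rwdd4a had 6 to 10 tags in each library and 1.54 ± 0.71, beside a last exon of 2131 bases. Of the 3-base microexons, only this one had flanks of 20 tags.

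Members with the deepest flanks had a small spread between libraries. Selenow, a small selenoprotein, had 2480 to 6261 tags for its 25-base exon and a ratio of 1.42 ± 0.04. Snrpg, a core protein of the spliceosome, had 1.58 ± 0.06 for 23 bases, and Atp5mpl, a subunit of the ATP synthase, 1.31 ± 0.04 for 24 bases. The membrane glycoprotein Bsg had 1.03 ± 0.08 for 25 bases, the microfibril protein Mfap2 1.01 ± 0.06 for 27, and the RNA-binding protein Hnrnpc 0.97 ± 0.14 for 26. None of these but Hnrnpc had listed skipping. Ptges3, a chaperone partner of Hsp90, had 0.61 ± 0.17 for 25 bases, beside a last exon of 1206 bases as a flank. Nap1l1, a histone chaperone, was the highest of the unambiguous members without listed skipping at 1.78 ± 0.18. Values such as those of Selenow, Snrpg and Nap1l1 exceed 1 by more than their SD, so the adjustment for length does not bring each exon to its flanks.

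The highest raw ratios among members with flanks of at least 100 tags came from exons with short flanks or high adjusted values. Sarnp, an RNA export protein, had a raw ratio of 0.880 ± 0.027 for 26 bases and an adjusted ratio of 1.12 ± 0.04, beside a flank of 29 bases. Sugt1, a chaperone partner, had 0.749 ± 0.049 raw and 1.03 ± 0.07 adjusted for 17 bases, and Ppih, a cyclophilin of the spliceosome, 0.737 ± 0.143 and 1.02 ± 0.20 for 24 bases. Pcbp2, an RNA-binding protein, had 0.735 ± 0.076 and 1.21 ± 0.13 for 24 bases, and Morf4l1, a chromatin protein, 0.664 ± 0.020 and 1.16 ± 0.04 for 26 bases. Adjustment brought Sugt1 and Ppih to their flanks within the SD, and left Sarnp, Pcbp2 and Morf4l1 above them.

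Low values were found in deep genes too. Vps29, a subunit of the retromer, had 646.5 to 1598 flank tags and 15 to 43 tags for its 12-base exon, a ratio of 0.11 ± 0.02. Cfl1, the actin severing protein cofilin, had 0.27 ± 0.05 for 6 bases, but the listed intron beside this exon has only 2 bases. At 0 tags in all 6 libraries were a 5-base exon of Psap, the lysosomal protein prosaposin (limit 0.0040), an 11-base exon of Dtnbp1, a subunit of the BLOC-1 complex (limit 0.010), and a 7-base exon of Nptn, the adhesion molecule neuroplastin (limit 0.0064). The 25-base exon of the transcription factor Tcf7l2 also had 0 tags, with a limit of 0.075.

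The 7 unambiguous microexons without listed skipping that lay below 0.2 were looked up after their values had been seen. Mia3, an organiser of collagen export, had 0 tags in every library for 10 bases, with flanks averaging 37.2 tags. Rffl, a ubiquitin ligase, had 0.10 ± 0.16 for 24 bases, and Picalm, a clathrin assembly protein, 0.17 ± 0.16 for 24 bases. Gm21974, Setd2, Tns3 and Trim44 were the other 4, with 0.012 ± 0.015, 0.14 ± 0.33, 0.16 ± 0.40 and 0.18 ± 0.16. Apart from Mia3, their SDs were close to or above their means.

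The reaction volume was compared first. In edgeR's quasi-likelihood test with the flank tags as offset, 0 of 325 microexons with at least 5 tags passed an adjusted p of 0.05, beside 0% of all 51025 internal exons. An unadjusted p under 0.05 was found for 5 of the 325 microexons, beside 1033 of the 51025 internal exons. DESeq2 and limma called 0 microexons as well. The log2 difference, high minus low volume, had a median of 0.011 (quartiles -0.19 and 0.22), and the median SE was 0.36, so changes of small size were not detectable for most members.

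Of the members with most to show, Ergic3 and L1cam had raw ratios that overlapped between the volumes within their SD, whereas those of Ap1s2 did not. For Ergic3 the raw ratio was 0.415 ± 0.047 (n = 3) in high and 0.364 ± 0.062 in low volume, a log2 difference of 0.16 (SE 0.15). For the 12-base exon of L1cam it was 0.052 ± 0.011 and 0.059 ± 0.012, a difference of -0.19 (SE 0.29). Ap1s2 had 0.092 ± 0.013 and 0.050 ± 0.025, a difference of 0.80 (SE 0.47). All 3 had an adjusted p of 0.994 in edgeR. The sign turned for Ergic3 without the low-volume 3 ng library (-0.016) and for L1cam with TMM scaling in place of the flanks (0.12).

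Restricted to the 10 and 30 ng libraries, edgeR called 1 of 325 microexons, beside 0.182% of all internal exons. That fit kept volume and input and so had fewer residual degrees of freedom than the 3 of the main fit. It was a 27-base exon of Myef2, a regulator of myelin gene expression, with 3 and 0 tags in high volume and 19 and 15 in low volume, a log2 difference of -3.75 (SE 0.70, adjusted p 0.0139). In both 3 ng libraries that exon had 0 tags, and another listed exon overlaps it. Myef2 is named because it was the 1 microexon called there.

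**Figure D5:**
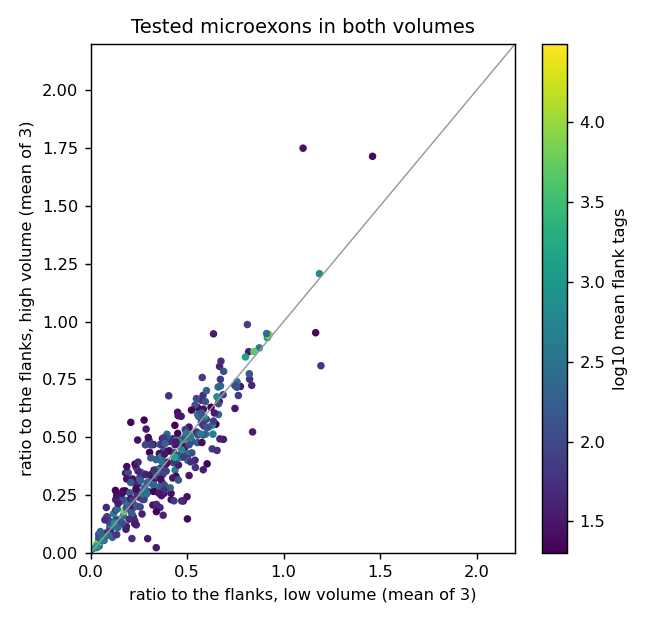
Ratio of microexon tags to flank tags (not adjusted for length), mean of the 3 low-volume libraries on the horizontal and of the 3 high-volume libraries on the vertical axis, for the 325 tested microexons. The line marks equal ratios and colour the log10 of mean flank tags. The points follow the line, with more scatter where the flanks are shallow.

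The amount of RNA was compared in the same fit. Per doubling of input 0 of 325 passed, beside 0.00196% (1) of 51025 internal exons. An unadjusted p under 0.05 was found for 16 of the 325, beside 3669 of the 51025 internal exons. The median log2 slope was 0.024 (quartiles -0.057 and 0.13), with 195 slopes above 0 and 130 below, and the median SE was 0.14. Over all 51025 internal exons the median slope was also above 0, at 0.0097. DESeq2 and limma called 0 microexons. With no filter on low tags edgeR called 1 of 1103, beside 0.588% of all exons, a 12-base exon of Nbr1, an autophagy receptor, whose 9 tags all came from the low-volume 3 ng library and which another exon overlaps.

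All 27 listed splicing regulators passed the expression filter of the gene test. Srrm4 had 2.21 ± 0.33 RPKM over the 6 libraries and its paralog Srrm3 0.930 ± 0.263, while Srsf11 and Rnps1, which work with Srrm4, had 21.4 ± 2.8 and 30.8 ± 3.4. Among repressors, Ptbp1 had 22.3 ± 5.1 RPKM and the neuronal Ptbp2 30.8 ± 10.3. The Rbfox proteins, which act from introns beside alternative exons, had 12.6 ± 2.1 (Rbfox1) and 10.5 ± 1.7 (Rbfox3), and Rbfox2 ran from 7.46 to 13.1. The neuronal Elavl4 had 83.7 ± 9.6 and Elavl2 31.9 ± 6.5, whereas Nova1 and Nova2 had 1.62 ± 0.37 and 0.593 ± 0.195. The order per length was thus Elavl4 above the others named, with Ptbp2, Elavl2 and Rnps1 overlapping below it, and Srrm4, Nova1, Srrm3 and Nova2 lowest.

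Of 27 regulators, 0 were called between the volumes in edgeR, beside 0.00597% (1) of 16742 genes. An unadjusted edgeR p under 0.05 was found for 3 regulators and for 1087 of the 16742 genes. On data simulated with the same dispersion of 0.164 for every gene, this gene test recovered 0 of 100 planted 2-fold changes and 49 of 100 planted 4-fold changes. The SE of the regulators themselves ran from 0.12 (Elavl4) to 0.50 (Nova2), so that recovery does not give the power for each of them. The 0 calls do not show equal levels. With input amount as a replicate block, 0 regulators and 0 genes were called. DESeq2 called 1, Mbnl1, with a log2 difference of -0.79 (SE 0.23, adjusted p 0.0226), beside 1.08% of genes. Mbnl1, which controls splicing in muscle and maturing tissues, had 4.00, 6.59 and 5.78 RPKM in high volume and 11.6, 10.2 and 9.31 in low volume at 3, 10 and 30 ng. In edgeR its difference was -0.79 (SE 0.21, adjusted p 0.65). Ptbp2 had 14.8, 30.6 and 22.7 RPKM in high volume and 39.6, 40.3 and 37.1 in low volume, a log2 difference of -0.65 (SE 0.23, adjusted p 0.713 in edgeR). The volumes did not overlap in RPKM for 4 of the 27 regulators, Mbnl1, Ptbp2, Celf2 and Elavl4, which is not a larger share than the 18.6% of all genes tested. All 4 were lower in high volume, but the direction over all genes was not counted. RPKM is scaled to the library total, whereas the edgeR gene test used TMM scaling. In edgeR the log2 differences of Celf2 and Elavl4 were -0.26 (SE 0.15) and -0.078 (SE 0.12).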

How the data were processed

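The build was GRCm38.p1, and the tools named were TopHat2 2.0.8, Bowtie2 2.1.0 and CASAVA 1.8, per the submitters' processing notes. How tags were counted, and on which annotation, is not given in the sources used here. Per the file headers, the deposited tables give a tag count for each transcript, exon and intron, and the authors' RPKM. The tags of all 93615 transcripts equalled the sum of their exons, and all 7 internal exons listed on both strands had equal tags on both, so overlapping and antisense genes cannot be told apart. GENCODE M21 matched 89664 transcripts.

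Tags of microexons and flanks were read as deposited. Volume and centred log2 input were fitted on 51025 internal exons (mean exon tags of at least 5, mean flank tags of at least 20) with edgeR 4.0.16 in R 4.3.3, with the log of mean flank tags plus 0.5 as offset, 3 residual degrees of freedom and Benjamini-Hochberg adjustment at 0.05. DESeq2 1.42.0, limma 3.58.1 and other scalings, filters and flanks were alternatives. RPKM of genes is the authors' deposited value for the transcript with the most tags. The scripts were tested on simulated data.

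Members, lists and tests were chosen with earlier results of these data known. Named members are those in the host lists with flanks of at least 20 tags, the 10 with the deepest flanks, the 8 highest and 8 lowest by ratio with flanks of at least 100 tags (no exon overlap), those of 3 to 8 bases with 5 tags in every library, and members added after their values were seen (the pairs between the same flanks among them). A few members that this rule names are not reported here.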

Additional observations from a re-analysis of the deposited data

How the results depend on the processing

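Of microexons called for volume, no alternative gave another count than 0 except the 10 and 30 ng libraries alone (1). Without the filter 1 microexon was called for input, a 12-base exon of Nbr1 with 9 tags in the low-volume 3 ng library and 0 in the others. Internal exons called for volume were 4 with DESeq2, 234 of 144850 without the filter and 93 with 10 and 30 ng only. For input the 1 call became 0 with TMM or DESeq2 size factors, with the rest of the transcript in place of the flanks, with limma, and with unambiguous exons only (an alternative chosen after seeing the data), 9 with DESeq2 and 852 without the filter. Leaving out libraries gave 0 to 2, and 0 without either 3 ng or either 30 ng library. With input amount as a replicate block 0 exons were called for volume, as without it, and the 1 gene called for volume was lost (0 of 16742). Regulators called were 1 with DESeq2. The direction turned for L1cam with TMM (0.12) and DESeq2 size factors (0.12) and for Ergic3 without the low-volume 3 ng library (-0.016; range -0.016 to 0.27) and with 10 and 30 ng only (-0.043). The cause was not tested. The median raw ratio of 0.280 became 0.467 with the lower flank, 0.319 with the geometric mean, 0.316 with internal flanks and 0.789 after adjustment for length. Without listed skipping the adjusted median of 0.989 became 1.17 with the lower flank. With listed skipping 0.205 became 0.411 with the lower flank and 0.337 with internal flanks. Detected microexons, a median of 450.5, became 840.5 at 1 tag and 293.5 at 10 tags. Of 89 named members, 25 moved by more than their SD with the lower flank, 6 with the geometric mean, and 6 with a span of 45 bases (added later).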
